A study of Mus musculus with 8 samples.

Results

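Parp9, Parp10, Parp12, Parp14, Dtx3l and Zc3hav1 were followed by RNA-seq in vascular smooth muscle cells, which give the artery wall its tone, taken as primary cells from mouse. The 6 genes encode interferon-induced members of the PARP family and a direct partner. They were found by gene symbol in the deposited table, and all 6 were among its 27249 genes. The 8 libraries form 4 groups of 2. THOC5 cells in osteogenic medium overexpressed THOC5 and were treated with inorganic phosphate (Pi), for which the series design gives 6 days. GFP cells in osteogenic medium overexpressed green fluorescent protein under the same treatment. THOC5 cells and GFP cells were also kept in growth medium, for which no number of days is given. The labels give the genotype of the GFP cells as WT, so every group carries an introduced gene, the controls included. The labels name neither the vector and its promoter nor the strain and age of the mice. THOC5 is a subunit of the THO complex, which couples transcription to the export of mRNA, and phosphate loading is a model of arterial calcification.

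PARP enzymes transfer ADP-ribose from NAD+ onto proteins. Most members of the family attach a single unit, whereas PARP1 and the tankyrases build chains. The genes described here are transcribed when type I interferon binds its receptor and transcription factors reach interferon-response elements. PARP9 carries macrodomains that bind ADP-ribose and forms a complex with DTX3L, an E3 ubiquitin ligase of the Deltex family. PARP10 and PARP12 attach single ADP-ribose units, and PARP12 also has zinc fingers of the type that bind RNA. PARP14 combines macrodomains with a catalytic domain and is known for its part in STAT6 signalling. Zc3hav1 encodes ZAP, also called PARP13, which binds CpG-rich viral RNA and directs it to decay and lacks catalytic activity of its own.

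In the GENCODE M21 annotation of GRCm38, 3 of the 6 genes lie side by side on chromosome 16. Parp14 spans 35832874 to 35871544 on the minus strand. Dtx3l spans 35926511 to 35939151 on the minus strand, 54966 bases away with 0 coding genes between them. Parp9 spans 35938470 to 35972605 on the plus strand, so it starts head to head with Dtx3l, and their annotated exons share 458 bases. A pair lies on chromosome 6. Zc3hav1 spans 38305286 to 38354603 and Parp12 spans 39086410 to 39118349, both on the minus strand, with 8 coding genes between them. Parp10 lies on chromosome 15 from 76231174 to 76243441 on the minus strand and shares 205 exon bases with Plec.

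The upstream sequences below are shown because members moved together with osteogenic medium, and the starts of Zc3hav1 and Parp12 could be set side by side with that of Dtx3l. They come from RefSeq on GRCm38.p6, whose promoter table matched 3 of the 6 members, and are written 5′ to 3′ on the strand of the gene. Stretches inside annotated exons were left out. Capitals mark GAAA, the core of the interferon-stimulated response element, or TTTC, the same core on the other strand. Zc3hav1 is taken from chr6:38354604-38354853, Parp12 from chr6:39118350-39118472 and Dtx3l from chr16:35939207-35939277, all on the minus strand.
Zc3hav1: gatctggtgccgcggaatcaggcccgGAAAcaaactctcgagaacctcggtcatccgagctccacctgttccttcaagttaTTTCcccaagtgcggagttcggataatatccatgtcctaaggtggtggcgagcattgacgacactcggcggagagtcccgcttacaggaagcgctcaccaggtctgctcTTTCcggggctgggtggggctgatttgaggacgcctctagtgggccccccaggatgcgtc
Parp12: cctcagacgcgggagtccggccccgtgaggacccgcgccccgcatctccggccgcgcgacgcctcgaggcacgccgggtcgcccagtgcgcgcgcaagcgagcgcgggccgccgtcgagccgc
Dtx3l: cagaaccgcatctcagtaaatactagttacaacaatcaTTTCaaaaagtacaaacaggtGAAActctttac

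The 3 sequences differ in base composition. Over the full 250 bases upstream, GC content was 58.8% for Zc3hav1, 73.6% for Parp12 and 52.8% for Dtx3l, beside a median of 52.4% over 32851 promoters. CpG pairs numbered 17, 41 and 13 in the same order, beside a median of 6. Windows from 250 bases before to 50 after each start were searched on both strands. The RefSeq start of Dtx3l lies inside its GENCODE span, and 179 of the 250 bases before it lie in annotated exons. The Dtx3l window therefore covers fewer than 250 bases beyond the annotated GENCODE start. A core form of the interferon-stimulated response element, GAAA, any 2 bases and GAAA again, was found in 0 of the 3 windows and in 3.44% of all promoters. The STAT-type motif TTCNNNGAA was also found in 0 of the 3 windows, and in 8.3% of all promoters. A lone GAAA, which the first motif contains, occurred in each of the 3 windows, for Parp12 in bases not shown, and in 89.2% of all promoters.

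Thoc5, read first to test the labels, reached 1780 and 1937 normalized counts in THOC5 cells given osteogenic medium, against 650 and 615 in GFP cells given osteogenic medium. In growth medium Thoc5 had 2155 and 1406 in THOC5 cells, against 458 and 471 in GFP cells. Reads of the introduced and of the resident gene were not separated. Libraries held 7058681 to 10581042 reads, and the 6 genes drew 422 to 2999 reads each per library, which gives a counting error of 4.87% at the low end and 1.83% at the high end. By mean level they lay between the percentiles 85.7 and 96.3 of the 22575 genes tested. The 2 libraries of GFP cells in osteogenic medium stood apart from the rest, with correlations across genes of 0.912 to 0.953 to other groups, beside 0.987 to 0.995 between those other groups. The labels do not say that replicates came from separate cultures, so p-values measure a spread between libraries that may be technical.

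Markers of the labelled cell type were present, and 7 of the 10 smooth muscle markers fell in GFP cells with osteogenic medium. In that response 2384 of 22575 tested genes were called lower. Des (log2 1.08 ± 0.42, limma adjusted p = 0.0992), Myocd (0.33 ± 0.35) and Synpo2 (-0.02 ± 0.23) did not pass. Acta2 made up most of the summed level of the 10 markers. That level was 25719 to 27718 normalized counts in THOC5 cells and 12065 to 13976 in GFP cells given osteogenic medium. In growth medium it was 31510 to 32257 in THOC5 cells and 25142 to 29343 in GFP cells. The summed level of 8 adventitial fibroblast markers was 50417 to 54786 in THOC5 cells and 12419 to 16795 in GFP cells given osteogenic medium. It was at least 53746 in every growth medium library. Of these 8 markers, 5 fell in the GFP response. Cd34 did not pass there (log2 0.03 ± 0.39), nor did Dpt and Pi16, which stayed under 10 normalized counts in every library. Of 14 leukocyte markers, 4 were not in the table and 8 stayed under 10 normalized counts in every library, among them Ptprc, Adgre1 and Itgam, while Lyz2 and Csf1r were read. Lyz2, a lysozyme gene, averaged 221 ± 29 normalized counts in THOC5 cells and 144 ± 3.4 in GFP cells given osteogenic medium (SD, n = 2 each) and fell in the GFP response by log2 -0.67 (limma adjusted p = 0.00300). The summed level of the leukocyte markers was 282 to 332 normalized counts in THOC5 cells and 212 to 233 in GFP cells given osteogenic medium, and 299 to 333 in growth medium. The endothelial markers Cdh5 and Emcn were not in the table, and Tek and Tie1 stayed under 10 normalized counts in every library. The summed level of the 6 in the table was 1139 to 1149 in THOC5 cells and 776 to 832 in GFP cells given osteogenic medium. In growth medium it was 945 to 1032. Eng made up most of that sum, at 1058 ± 5.1 in THOC5 cells and 758 ± 26 in GFP cells given osteogenic medium (SD, n = 2 each). Of 5 tested endothelial markers, 2 were higher in THOC5 than in GFP cells given osteogenic medium. The 1 called lower was Kdr (log2 -1.51 ± 0.41, limma adjusted p = 0.0219). The part of these shifts in the results below was not tested, and in bulk RNA fewer cells of a type and less RNA per cell cannot be told apart.

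Osteogenic medium was tied to higher transcript levels of this group of genes in both kinds of cell. In THOC5 cells 5 of the 6 genes rose (Parp14, Dtx3l, Parp12, Parp10 and Parp9), between 1.71-fold and 2.15-fold, where 0.532% of all tested genes were called higher. In GFP cells 4 of the 6 rose (Parp14, Parp12, Zc3hav1 and Parp10), between 1.33-fold and 1.71-fold, where 10.3% of all tested genes were called higher. Both osteogenic libraries lay above both growth libraries for 6 of the 6 genes in THOC5 cells, as for 15.1% of all tested genes, and for 5 of the 6 in GFP cells, as for 27.7%. Between THOC5 and GFP cells in osteogenic medium, Parp9 was higher and Zc3hav1 lower in the THOC5 cells, so that 2 of 6 were called, where 22% of all tested genes were. In growth medium no difference between THOC5 and GFP cells passed the test for any of the 6.

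**Figure D1:**
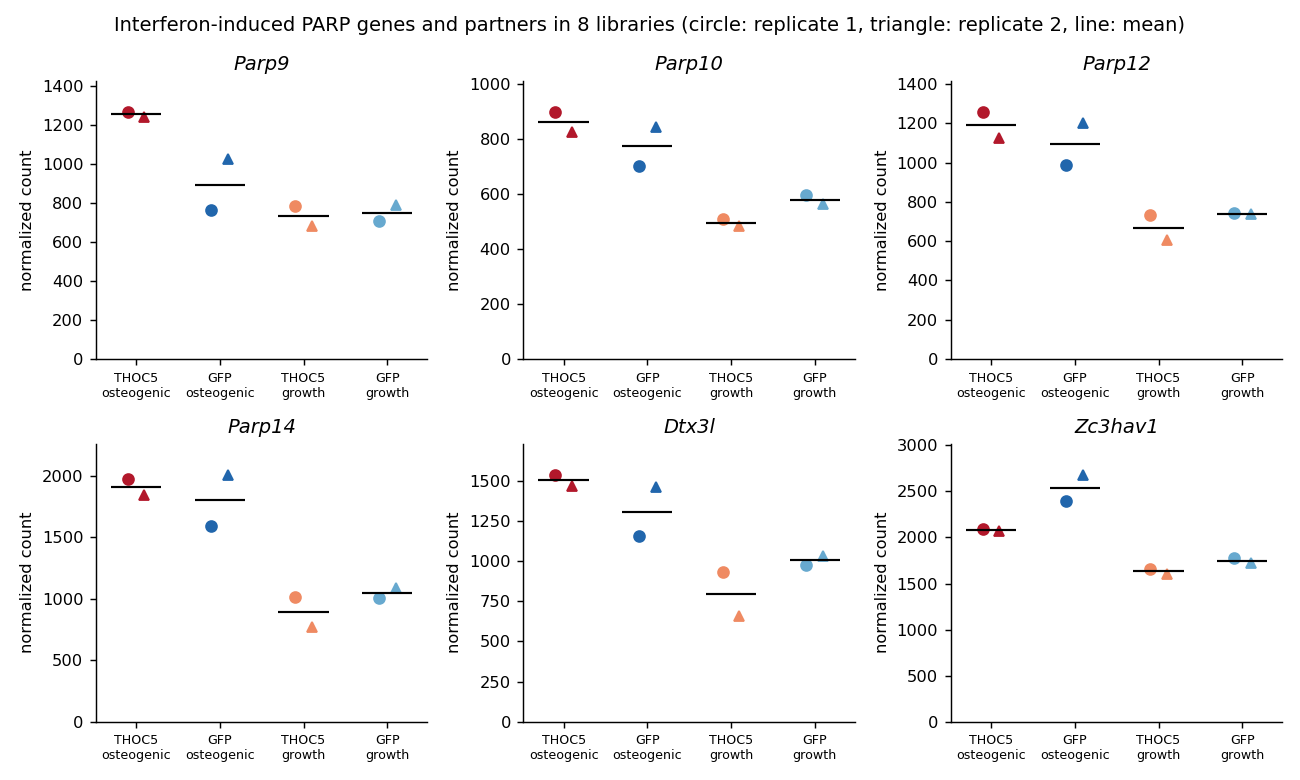
Normalized read counts of the 6 genes in every library, with 1 point per library and a line at each group mean (n = 2). Osteogenic medium libraries lie above growth medium libraries for each gene except Parp9 in GFP cells, and Zc3hav1 is highest in GFP cells given osteogenic medium.

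PARP9 and DTX3L act as a pair, and their transcripts differed in how they stood between the groups. Parp9 had 1265 and 1241 normalized counts in THOC5 cells given osteogenic medium, against 762 and 1021 in GFP cells given osteogenic medium. In growth medium Parp9 had 784 and 681 in THOC5 cells, against 709 and 791 in GFP cells. THOC5 cells in osteogenic medium were thus clear of all 6 other libraries, and the other 3 groups overlapped their neighbours in the order of means. Parp9 averaged 1253 ± 17 in THOC5 cells and 892 ± 183 in GFP cells given osteogenic medium, and 732 ± 73 in THOC5 cells and 750 ± 58 in GFP cells in growth medium (SD, n = 2 each).

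Dtx3l, the ubiquitin ligase of the pair, had 1538 and 1466 normalized counts in THOC5 cells given osteogenic medium and 1155 and 1460 in GFP cells given osteogenic medium. Its growth medium values were 929 and 655 in THOC5 cells and 975 and 1034 in GFP cells. The 4 groups stood in that order except that GFP cells lay above THOC5 cells in growth medium, and no neighbouring groups overlapped, although in osteogenic medium the upper GFP library (1460) came close to the lower THOC5 library (1466). The spread was widest in THOC5 cells in growth medium, at 24.4% of the mean, beside 3.36% in THOC5 cells given osteogenic medium.

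PARP10, PARP12 and PARP14 transfer single ADP-ribose units. For their genes, as for Dtx3l and Zc3hav1, both osteogenic groups lay above both growth groups. Parp10 had 897 and 823 normalized counts in THOC5 cells given osteogenic medium and 702 and 842 in GFP cells given osteogenic medium. Its growth medium values were 507 and 481 in THOC5 cells and 596 and 561 in GFP cells. The osteogenic groups overlapped each other, and the THOC5 libraries in growth medium were the lowest.

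Parp12 stood at 1259 and 1126 normalized counts in THOC5 cells given osteogenic medium and at 990 and 1203 in GFP cells given osteogenic medium. In growth medium Parp12 stood at 734 and 605 in THOC5 cells, and at 745 and 738 in GFP cells. The osteogenic groups overlapped, and in growth medium both THOC5 libraries lay below both GFP libraries, replicate 1 by a narrow margin.

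Parp14 reached 1972 and 1844 normalized counts in THOC5 cells given osteogenic medium, and 1591 and 2012 in GFP cells given osteogenic medium. In growth medium the values were 1018 and 775 in THOC5 cells, and 1005 and 1085 in GFP cells. THOC5 and GFP libraries overlapped in both media, whereas the lowest osteogenic library lay above the highest growth library.

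Zc3hav1, the gene of ZAP, was the exception in its order of groups. It had 2092 and 2065 normalized counts in THOC5 cells given osteogenic medium, against 2393 and 2682 in GFP cells given osteogenic medium. In growth medium it had 1661 and 1608 in THOC5 cells, against 1775 and 1719 in GFP cells. GFP libraries were above THOC5 libraries in each medium, and no groups overlapped. Per kilobase of annotated exon Zc3hav1 had the highest level of the 6 in every group, at 319 ± 2.9 normalized counts per kilobase in THOC5 cells and 389 ± 31 in GFP cells given osteogenic medium. On the same scale Parp14 had the lowest level in growth medium, at 96.3 ± 18 in THOC5 cells and 112 ± 6.1 in GFP cells.

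The response of THOC5 cells to osteogenic medium asks what the medium changes when THOC5 is in excess. In that comparison 5 of the 6 genes passed limma with Benjamini-Hochberg adjustment over all tested genes. Parp14 rose most, by log2 1.10 ± 0.14 (SE, limma adjusted p = 0.00265), which is 2.15-fold. Dtx3l rose by log2 0.94 ± 0.15 (adjusted p = 0.0147) and Parp9 by 0.78 ± 0.13 (adjusted p = 0.0199). Parp12 rose by log2 0.84 ± 0.12 (adjusted p = 0.00652) and Parp10 by 0.80 ± 0.10 (adjusted p = 0.00385). Among the 120 risen genes ordered by log2 change, Parp14 was at place 53, Dtx3l at 79, Parp12 at 90, Parp10 at 93 and Parp9 at 99. Zc3hav1 did not pass, at log2 0.35 ± 0.08 (adjusted p = 0.190), although its THOC5 libraries in osteogenic medium did not overlap those in growth medium.

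The THOC5 response had a small background of calls and depended on single libraries. Leaving out 1 THOC5 library lowered the number of calls over all tested genes as well as among the members. With THOC5 osteogenic replicate 1 or replicate 2 left out, 0 of the 6 genes passed, and with THOC5 growth replicate 2 left out 1 passed. Without THOC5 growth replicate 1, Parp9 did not pass (adjusted p = 0.0807, over 17 alternatives 1.28e-05 to 0.501). Without a filter on low values the member count was also 0, where 37 genes were called in all, against 122 with the filter. Within these 4 libraries alone 3 members passed, where 84 genes were called in all. The estimates moved less than the calls, and over 17 alternatives Parp14 stayed between log2 0.91 and 1.30, with adjusted p between 1.06e-11 and 0.199.

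The response of GFP cells addresses what the medium changes without added THOC5. Here 4 of the 6 genes rose, and 20.8% of all tested genes were called in either direction. Parp14 again had the largest change of the 6, at log2 0.78 ± 0.14 (SE, limma adjusted p = 0.00213). Parp12 rose by 0.56 ± 0.12 (adjusted p = 0.00635), Zc3hav1 by 0.54 ± 0.08 (adjusted p = 0.000909) and Parp10 by 0.41 ± 0.10 (adjusted p = 0.0154). Dtx3l stood at log2 0.37 ± 0.15 (adjusted p = 0.111) and Parp9 at 0.24 ± 0.13 (adjusted p = 0.242), and neither passed. The authors' deposited table gives Dtx3l an adjusted p of 0.0502 in this comparison, Parp9 one of 0.211 and the 4 risen genes 0.0117 or less. In the THOC5 response it gives the 5 genes called above 1.27e-05 or less and Zc3hav1 0.0586. Between THOC5 and GFP cells in osteogenic medium it gives Parp9 0.00349, Zc3hav1 0.0178 and the other members 0.353 or more. Under 0.05 it holds 3798, 149 and 4182 genes in that order of comparisons.

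In the GFP response Parp14 and Zc3hav1 passed in 17 of 17 alternatives, whereas the calls of Parp10 and Parp12 depended on GFP osteogenic replicate 2. In that library all 6 genes were higher than in replicate 1, by a median of log2 0.31 where the median over all tested genes was 0.01. Without that library Parp10 stood at log2 0.28 (adjusted p = 0.109) and Parp12 at 0.42 (adjusted p = 0.0627), and 2 genes passed. Over 17 alternatives the adjusted p ran between 0.00244 and 0.109 for Parp10 and between 0.000406 and 0.0627 for Parp12. Without GFP growth replicate 2, Parp10 had an adjusted p of 0.0911, and within the 4 GFP libraries alone 0.0591. Without GFP osteogenic replicate 1, Parp9 stood at log2 0.45 (adjusted p = 0.0453, over alternatives 0.0453 to 0.906). Dtx3l passed by edgeR (adjusted p = 0.0439), which called 11.2% of all tested genes higher, and by DESeq2 (adjusted p = 0.0493), which called 8.15%. It also passed when scaled to library totals (0.0292) and without either THOC5 growth replicate 1 (0.0451) or replicate 2 (0.0449), in a range of 0.0292 to 0.510 over 17 alternatives.

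**Figure D2:**
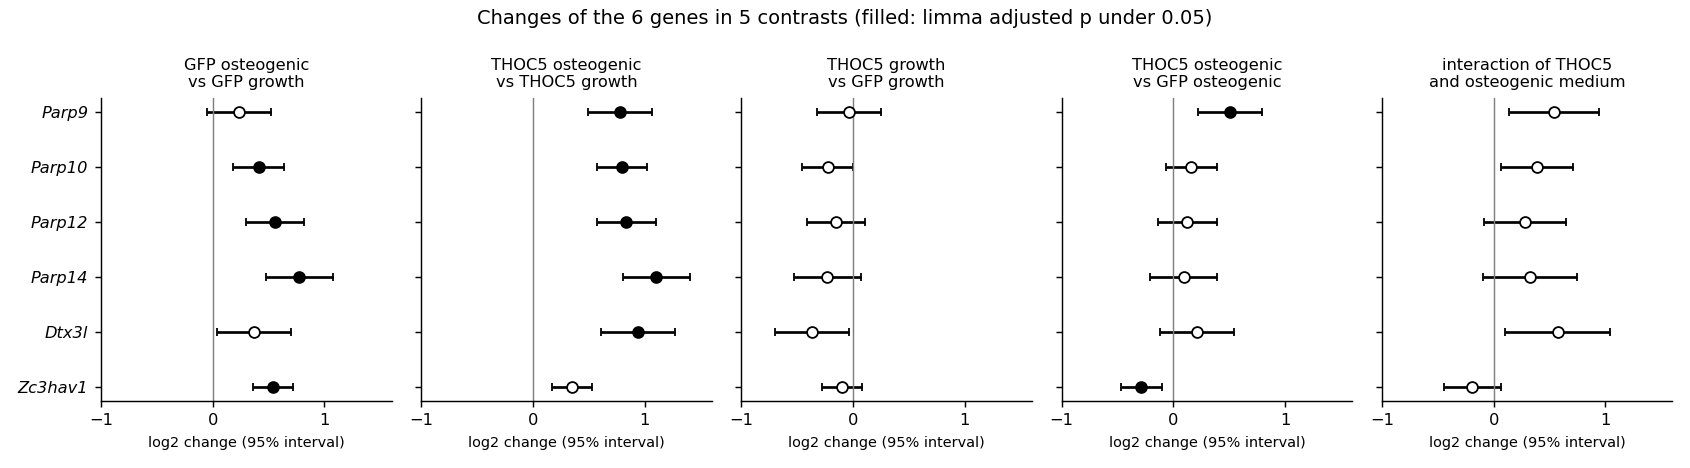
Fitted log2 changes of the 6 genes in the comparisons of the study, with bars for the 95% confidence interval and filled points where the limma adjusted p was under 0.05. Medium responses lie to the right of 0 for each gene, and between THOC5 and GFP cells in osteogenic medium Parp9 lies to the right and Zc3hav1 to the left.

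The comparison of THOC5 with GFP cells in osteogenic medium asks whether excess THOC5 alters the state reached under phosphate. Parp9 was higher in THOC5 cells by log2 0.51 ± 0.13 (SE, limma adjusted p = 0.0165), which is 1.42-fold. Zc3hav1 was lower in THOC5 cells by log2 -0.29 ± 0.08 (adjusted p = 0.0274), a fold of 0.820. These are 2 of 6 genes, where 11.3% of all tested genes were called higher and 10.7% lower, so the share of members called stood near the background. THOC5 libraries lay above GFP libraries for Parp9 and Dtx3l, as for 30.8% of all tested genes, and below them for Zc3hav1, as for 28.6%. Dtx3l did not pass at log2 0.21 ± 0.15 (adjusted p = 0.389), with a 95% interval of -0.12 to 0.54. Parp10 stood at 0.16 (interval -0.07 to 0.39), Parp12 at 0.13 (-0.14 to 0.39) and Parp14 at 0.09 (-0.21 to 0.39).

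Scaling to library totals moved the median of all genes in this comparison by log2 -0.16, and with it Parp9 no longer passed (log2 0.33, adjusted p = 0.0911), Zc3hav1 did (log2 -0.46, adjusted p = 0.00158), and the estimates of Parp10, Parp12 and Parp14 were below 0. Left-out libraries also ended calls. Parp9 had an adjusted p of 0.116 without THOC5 osteogenic replicate 1, 0.117 without replicate 2 and 0.151 without GFP osteogenic replicate 1, and Zc3hav1 had 0.117 without THOC5 osteogenic replicate 1, 0.159 without replicate 2 and 0.132 without GFP osteogenic replicate 2. Over 17 alternatives the range was 0.00342 to 0.151 for Parp9 and 0.00158 to 0.159 for Zc3hav1.

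In growth medium THOC5 cells were compared with GFP cells to see what excess THOC5 does without phosphate. The limma count was 0 of 6, in a comparison where 0.00443% of tested genes were called, which is Thoc5 itself. edgeR and DESeq2 also called 0 of the 6, and 1 of the 6, Dtx3l, had an unadjusted p under 0.05. All 6 estimates lay below 0, from log2 -0.36 ± 0.15 for Dtx3l (95% interval -0.70 to -0.03) to -0.04 ± 0.13 for Parp9 (interval -0.32 to 0.25). THOC5 libraries lay below GFP libraries for 4 of the 6 (Parp10, Parp12, Dtx3l and Zc3hav1), as for 16.5% of all tested genes. All 6 genes were lower in THOC5 growth replicate 2 than in replicate 1, by a median of log2 -0.24 where that over all tested genes was -0.01.

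Whether the medium response differed between THOC5 and GFP cells was tested as an interaction. By limma 0 of the 6 genes passed, against 9.22% of all tested genes, and edgeR and DESeq2 gave 0 as well, against 10.9% and 8.59% of all tested genes. An unadjusted p under 0.05 was found for 3 of the 6. The interaction of Parp9 was log2 0.54 ± 0.18 (SE, limma adjusted p = 0.0962), that of Dtx3l 0.57 ± 0.21 (adjusted p = 0.127) and that of Parp10 0.39 ± 0.15 (adjusted p = 0.133). Zc3hav1 had the only estimate below 0, at -0.19 ± 0.12. With genes of at least 10 normalized counts in at least 2 libraries, Parp9 passed (adjusted p = 0.0470), as it did without GFP osteogenic replicate 2 (0.0197, over 16 alternatives 0.0197 to 0.288). Dtx3l passed without THOC5 growth replicate 1 (0.0380, over alternatives 0.0380 to 0.393). The larger THOC5 response of these genes is therefore not shown by this test to differ from the GFP response.

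The balance of Parp9 to Dtx3l transcripts was higher in THOC5 than in GFP libraries. Counts of Parp9 over Dtx3l stood at 0.823 and 0.846 in THOC5 cells and at 0.659 and 0.700 in GFP cells given osteogenic medium. In growth medium they stood at 0.844 and 1.04 in THOC5 cells and at 0.726 and 0.765 in GFP cells. All 4 THOC5 libraries were thus above all 4 GFP libraries, a split seen in the values and given with no test. The shared exon stretch is 9.40% of the annotated exon length of Parp9 and 8% of that of Dtx3l, and the kit does not mark strand, so reads there cannot be told apart. Counts of Zc3hav1 over Parp14 were 1.06 and 1.12 in THOC5 cells and 1.50 and 1.33 in GFP cells given osteogenic medium. In growth medium they were 1.63 and 2.08 in THOC5 cells and 1.77 and 1.58 in GFP cells, above every osteogenic library. These ratios are not per length and compare libraries, not genes.

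**Figure D3:**
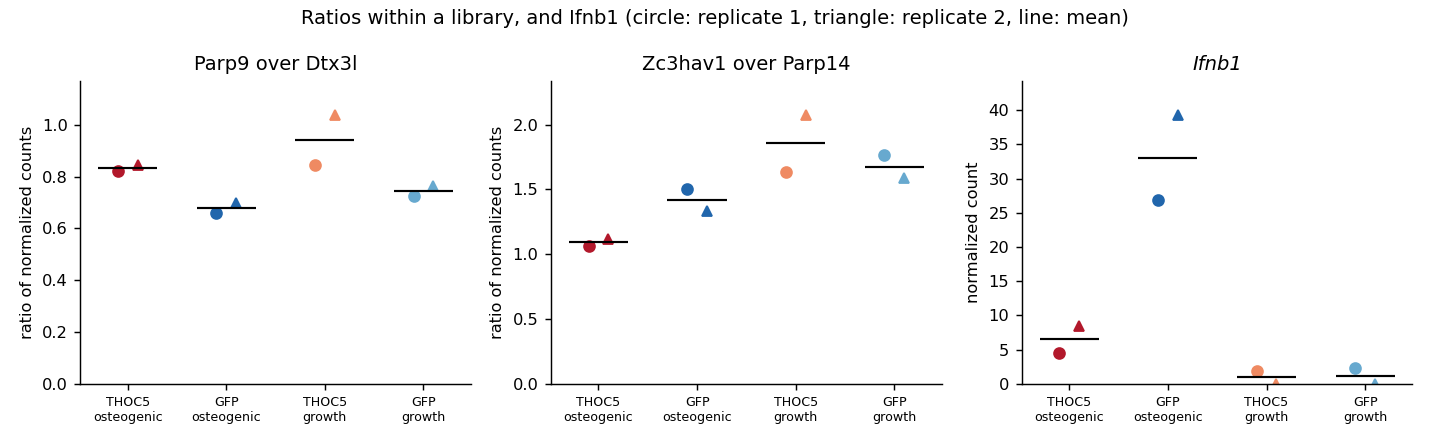
Ratios of normalized counts between members in every library, with 1 point per library and a line at each group mean (n = 2). Parp9 over Dtx3l lies at 0.823 or more in each THOC5 library and at 0.765 or less in each GFP library.

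Further overlaps touch other members. Parp10 shares 4.80% of its exon length with Plec, which encodes the cytoskeletal linker plectin and lies on the same strand. Plec had 8820 and 8860 normalized counts in THOC5 cells and 6647 and 6732 in GFP cells given osteogenic medium, and 7871 and 7890 in THOC5 cells and 8797 and 9047 in GFP cells in growth medium. It fell in the GFP response by log2 -0.42 ± 0.08 (limma adjusted p = 0.00336), whereas Parp10 rose there. Parp14 shares 1.18% of its exon length with Gm49730, which reached at most 7.51 normalized counts. The part of these shared bases in the levels was not tested.

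Across the 8 libraries the transcript levels of the 6 genes were most alike for Parp12 and Parp14 (Pearson r 0.994 on log2 values) and least alike for Parp9 and Zc3hav1 (r 0.514). Both values are descriptions over 8 libraries that share their groups and scaling. Among 10323 genes with a mean of at least 50 normalized counts, the closest patterns came from other interferon-stimulated genes in several cases. Parp14 was closest to Ifit1, whose product binds foreign RNA (r 0.998), then to Phf11d and Stat2. Parp12 was close to H2-T22 (r 0.992) and Mndal (r 0.991). Dtx3l was closest to Oas1g (r 0.988), Ddx58 (RIG-I) and Ddx60, and Parp10 to H2-T22 (r 0.985), Helz2 and Znfx1. Parp9 was closest to Lgals9, which encodes galectin-9 (r 0.982), then to Rnf213 and Trim14. Zc3hav1 was closest to Trim26 (r 0.984), Oasl1 and Tmem140.

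In the rest of the PARP family, of 11 genes, 1 rose in the THOC5 response, where 0.532% of all tested genes were called higher, and 2 rose and 1 fell in the GFP response, where 20.8% of all tested genes were called. The family had medians of log2 -0.01 and 0.14 where all tested genes had -0.01 and 0.00. Parp11, a single-unit transferase, averaged 1187 ± 51 normalized counts in THOC5 cells and 1004 ± 121 in GFP cells given osteogenic medium, and 624 ± 41 in THOC5 cells and 739 ± 141 in GFP cells in growth medium (SD, n = 2 each). It rose by log2 0.93 ± 0.13 in THOC5 cells (limma adjusted p = 0.00613) and by 0.45 ± 0.13 in GFP cells (adjusted p = 0.0298). The GFP call of Parp11 was lost in 7 of 17 alternatives, among them the one without GFP osteogenic replicate 2 (log2 0.32, adjusted p = 0.205), and the THOC5 call in 4, among them those without THOC5 osteogenic replicate 1 (adjusted p = 0.275), replicate 2 (0.171) and THOC5 growth replicate 2 (0.148).

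Tiparp, which encodes the dioxin-inducible PARP7, rose in GFP cells by log2 0.66 ± 0.12 (limma adjusted p = 0.00214) and stood at 0.10 ± 0.12 in THOC5 cells (adjusted p = 0.949). It averaged 344 ± 1.3 normalized counts in THOC5 cells and 558 ± 5.4 in GFP cells given osteogenic medium, a difference of log2 -0.70 (adjusted p = 0.00144). Parp4, the PARP of vault particles, fell in GFP cells by log2 -0.43 ± 0.10 (adjusted p = 0.0130). In osteogenic medium 2 of the 11 were higher in THOC5 than in GFP cells, Parp4 by log2 0.38 and Parp3, a nuclear PARP of DNA repair, by 0.37, and 2 were lower, where 22% of all tested genes were called in either direction. The lower genes were Tiparp and the tankyrase gene Tnks2 (log2 -0.27, limma adjusted p = 0.0355), whose call was lost when any 1 of the 4 osteogenic libraries was left out (adjusted p between 0.0655 and 0.261). The calls of Parp4 and Parp3 were lost in 6 and 5 of 17 alternatives, scaling to library totals included, and the fall of Parp4 in 3. Parp1, the main nuclear chain-building enzyme, stood at log2 -0.02 in THOC5 cells and 0.00 in GFP cells with osteogenic medium.

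**Figure D4:**
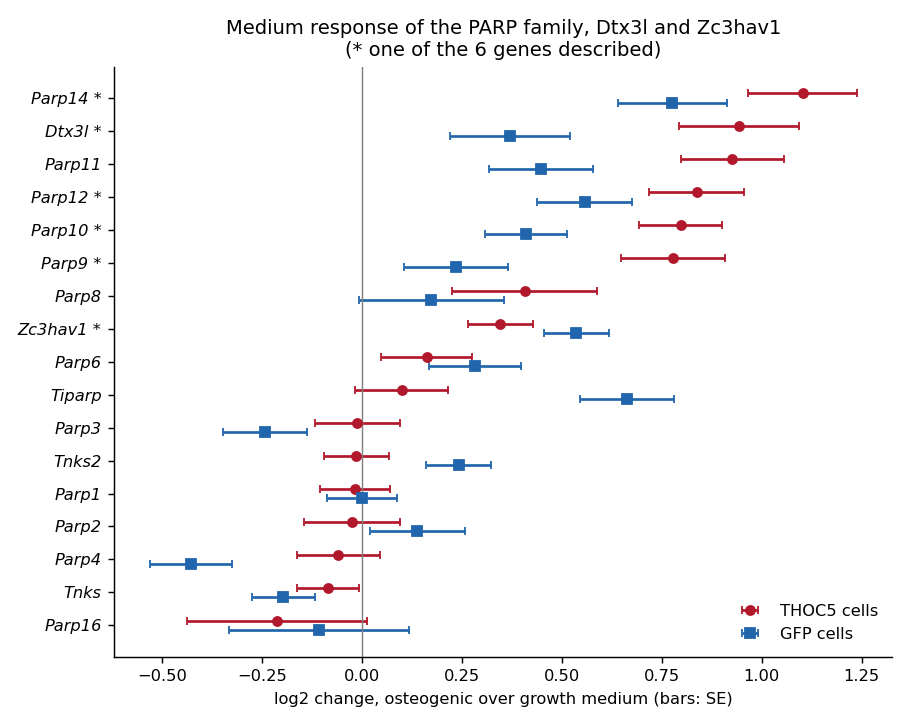
Log2 responses to osteogenic medium of the 17 genes that make up the PARP family and Dtx3l, in THOC5 cells and in GFP cells, with bars for the SE. In THOC5 cells Parp9, Parp10, Parp12, Parp14, Dtx3l and Parp11 lie at log2 0.78 or more, Parp8 at 0.41 and Zc3hav1 at 0.35, whereas Parp1, Parp2 and the tankyrases stay near 0.

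Enzymes that remove ADP-ribose and proteins that read it were called in both directions. Of 10 such genes in the table, 1 rose and 2 fell in the GFP response, near the 20.8% of all tested genes called there, and their median was log2 0.06 in THOC5 cells and -0.01 in GFP cells. Adprh, a hydrolase that removes ADP-ribose from arginine, rose in GFP cells by log2 0.56 ± 0.11 (limma adjusted p = 0.00345). Nudt16, which cleaves ADP-ribose on proteins, fell there by log2 -0.69 ± 0.18, and Macrod1, a macrodomain hydrolase, by -0.52 ± 0.16. The call of Nudt16 was lost when scaled to library totals and without GFP osteogenic replicate 2 or GFP growth replicate 1, and that of Macrod1 in 11 of 17 alternatives.

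Among 8 Deltex and DTX3L-related genes, 2 rose and 0 fell in the GFP response, where 20.8% of all tested genes were called in either direction. Kpna1, an importin that carries cargo to the nucleus, rose there by log2 1.03 ± 0.15 (limma adjusted p = 0.000708). Between THOC5 and GFP cells in osteogenic medium 1 was higher and 1 lower, where 22% of all tested genes were called. Dtx4, another Deltex ligase, was higher in THOC5 than in GFP cells given osteogenic medium by log2 0.40 ± 0.12 (adjusted p = 0.0373), a call lost in 6 of the alternatives.

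Among 8 cofactors and relatives of ZAP, Trim25, the ubiquitin ligase that ZAP needs against viruses, was the 1 that rose in THOC5 cells, by log2 0.65 ± 0.10 (limma adjusted p = 0.0102). In that response 0.532% of all tested genes were called higher. In GFP cells Trim25 rose by log2 0.43 ± 0.10 (adjusted p = 0.0102), and 2 fell, where 20.8% of all tested genes were called in either direction. The THOC5 call of Trim25 was lost in 5 of 17 alternatives, each omission of a THOC5 library included, and the GFP call in 3. Khnyn, the endonuclease that works with ZAP, fell by log2 -0.49 ± 0.09 (adjusted p = 0.00319) and Zc3h12a, the RNase Regnase-1, by -1.13 ± 0.10 (adjusted p = 2.69e-05). In osteogenic medium both were higher in THOC5 than in GFP cells, Zc3h12a at 701 ± 59 against 302 ± 7.2 normalized counts and Khnyn at 880 ± 35 against 580 ± 20. Zc3hav1 went the other way there.

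Most genes of the wider interferon response rose as well. Of 30 other interferon-stimulated genes, 27 rose in THOC5 cells, where 0.532% of all tested genes were called higher. In GFP cells 25 of them rose, where 10.3% of all tested genes were called higher. Their medians were log2 1.28 in THOC5 cells and 0.89 in GFP cells. The members' own medians were 0.82 and 0.47. Isg15, a ubiquitin-like modifier, rose by log2 1.76 ± 0.10 in THOC5 cells (limma adjusted p = 2.64e-05) and by 1.46 ± 0.10 in GFP cells (adjusted p = 4.36e-06). Bst2, the tether that holds budding virus, rose by log2 1.30 ± 0.11 in THOC5 cells, and Oas1a, an RNA sensor, by 1.40 ± 0.10 in THOC5 cells and 1.21 ± 0.10 in GFP cells. Of 12 signal transducers, 4 rose in THOC5 cells. In GFP cells 6 rose and 2 fell, where 20.8% of all tested genes were called in either direction. Those that fell were the receptor chains Ifnar1 (log2 -0.38 ± 0.08, limma adjusted p = 0.00761) and Ifnar2 (log2 -0.39 ± 0.09, adjusted p = 0.00976). In THOC5 cells these chains stood at log2 0.00 and 0.19 and did not pass. Irf7, the factor that amplifies interferon transcription, rose by log2 2.09 ± 0.12 in THOC5 cells and by 1.50 ± 0.12 in GFP cells.

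Between THOC5 and GFP cells in osteogenic medium these lists held calls in both directions. Of the 30 interferon-stimulated genes, 4 were higher and 4 lower in THOC5 cells, with a median of log2 0.13, a share near the 22% of all tested genes called in that comparison. Uba7, the enzyme that activates ISG15, was higher by log2 1.08 ± 0.15 (limma adjusted p = 0.000376), and Oasl1 lower by -2.30 ± 0.36 (adjusted p = 0.000957). Of the 12 transducers 3 were higher, among them the receptor chains Ifnar1 (log2 0.49 ± 0.08) and Ifnar2 (log2 0.56 ± 0.09), and 2 were lower. Both receptor chains had fallen in the GFP response and did not pass in the THOC5 response. In growth medium the medians were log2 -0.27 for the 30 genes and -0.11 for the transducers.

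Ifnb1, the gene of interferon beta, is the upstream signal of the pathway and was thinly read. It drew 5 and 9 reads in THOC5 cells and 31 and 44 in GFP cells given osteogenic medium, and 2 and 0 reads in growth medium in THOC5 cells as in GFP cells. The osteogenic groups did not overlap, and the limma difference between them was log2 -2.21 ± 0.70 (adjusted p = 0.0445), a call lost with a pseudocount of 0.5 (0.119), without a filter (0.101) and with any 1 of the 4 osteogenic libraries left out (0.124 to 0.246). Ifnb1 rose in the GFP response by log2 4.20 ± 0.70 (limma adjusted p = 0.00162). In the THOC5 response it stood at log2 2.08 ± 0.70 (95% interval 0.53 to 3.63, limma adjusted p = 0.694), with both osteogenic libraries above both growth libraries. The interaction of log2 -2.12 ± 1.00 did not pass (adjusted p = 0.230), although it did with a pseudocount of 5 (adjusted p = 0.0375). Zc3hav1 and Ifnb1 were both lower in THOC5 than in GFP cells given osteogenic medium. The comparisons share libraries, and no relation between Ifnb1 and the members was tested.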

How the data were processed

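Polyadenylated RNA was sequenced from 8 libraries in 4 groups of 2, made with the unstranded TruSeq RNA kit V2, per the labels' protocols. The deposited table holds a signal per gene, a read count that the authors scaled by a size factor for each library. The factors were inferred here by taking the smallest value above 0 in each library as 1 read. Dividing each library by that value gave whole reads for 100% of values (within 1e-06). The deposited table also holds the authors' log2 fold changes with their standard errors, test scores and p-values for 4 comparisons, per the file headers. Bowtie2, FastQC, SAMtools, MACS2 and mm10 are named without roles, per the submitters' processing notes, and the counting is not given in the sources used here.

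Columns were matched to samples by the description field. limma 3.58.1 (R 4.3.3, trend option) used log2 values with a pseudocount of 1 and the 22575 genes that reached 1 normalized count in 2 or more libraries. A joint fit of the 8 libraries, with group means only, left 4 residual degrees of freedom. Fold changes on this scale understate low genes. p-values were adjusted by Benjamini-Hochberg over all tested genes per contrast, with a threshold of 0.05, in 5 contrasts. The script was tested on simulated data. edgeR 4.0.16 and DESeq2 1.42.0 on recovered reads, a pseudocount of 0.5 or 5, other filters, scaling to library totals, a fit of the 4 libraries compared, a replicate block and leaving out each library were alternatives.

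Besides the 6 genes and Thoc5, the text names up to 3 genes per list and contrast with the smallest p among those past the threshold, and the 3 genes most correlated with each member. A gene that these rules also name is not reported here. Parp1, Parp2, Parp8, Tnks2, Oas2, Plec, Gm49730 and single marker genes were named outside this rule, after their values were seen. Members and lists were chosen with earlier results of these data known. RNA immunoprecipitation libraries were not analysed here. Counting errors cover sampling of reads only.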

Additional observations from a re-analysis of the deposited data

Results flagged for a closer look

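In the lists of related genes, 9 had a medium response that differed between THOC5 and GFP cells by the limma interaction, in which 9.22% of all tested genes passed. The lists held 11, 10, 8, 8, 12 and 30 tested genes, so the share that passed was near that of all tested genes. Plec, which shares exon bases with Parp10, also passed. None of the 6 interferon-induced PARP genes and partners was among them by that test.

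Among partners of DTX3L and PARP9, the response of Kpna1 was smaller in THOC5 than in GFP cells by log2 -1.17 ± 0.21 (limma adjusted p = 0.00765). Kpna1 averaged 320 ± 68 normalized counts in THOC5 cells and 679 ± 30 in GFP cells in osteogenic medium, and 348 ± 41 in THOC5 cells and 333 ± 45 in GFP cells in growth medium (SD, n = 2 each).

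Among ZAP cofactors and relatives, the interaction was log2 1.23 ± 0.14 for Zc3h12a (adjusted p = 0.000793) and 0.64 ± 0.13 for Khnyn (adjusted p = 0.0120). Zc3h12a averaged 701 ± 59 normalized counts in THOC5 cells and 302 ± 7.2 in GFP cells under osteogenic medium, and 654 ± 48 in THOC5 cells and 661 ± 40 in GFP cells in growth medium.

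Among interferon signal transducers, the interaction was log2 0.58 ± 0.13 for Ifnar2 (adjusted p = 0.0168). It was 1.41 ± 0.31 for Socs1, a feedback inhibitor of JAK kinases (adjusted p = 0.0176), which averaged 51.7 ± 0.12 normalized counts in THOC5 cells and 26.0 ± 1.2 in GFP cells in osteogenic medium, and 29.8 ± 1.1 in THOC5 cells and 40.9 ± 1.5 in GFP cells in growth medium.

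Among other interferon-stimulated genes, the interaction was log2 0.72 ± 0.13 for Lgals3bp (adjusted p = 0.00691), 0.80 ± 0.15 for Dhx58, the RIG-I-like receptor LGP2 (adjusted p = 0.00830), and 1.10 ± 0.21 for Uba7 (adjusted p = 0.00851). It was log2 1.21 ± 0.23 for Oas2, a synthetase of the OAS family (adjusted p = 0.00862). For Plec the interaction was log2 0.58 ± 0.11 (adjusted p = 0.00928). These calls were lost in 5 of 16 alternatives for Ifnar2 and for Socs1, in 4 for Khnyn and for Oas2, 3 for Uba7, 2 for Kpna1 and for Plec, 1 for Lgals3bp and for Dhx58, and 0 for Zc3h12a. No explanation was tested for any of these, and the libraries of GFP cells in osteogenic medium stood apart as described above.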

How the results depend on the processing

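Of the members' log2 changes, recomputed under 16 or 17 alternatives each, 461 kept their side of the threshold, 34 lost the call, 9 gained it and 0 called values changed sign. Estimates that had not passed took the other sign for Parp9 in growth medium in 2 alternatives, and between THOC5 and GFP cells in osteogenic medium for Parp10 in 1, Parp12 in 2 and Parp14 in 2. In the THOC5 response 5 members were called. Without a filter on low values 0 were, within the 4 libraries compared 3 were, and with 1 library left out 0 to 5 were. In the GFP response 4 were called, and with 1 library left out 2 to 5. Between THOC5 and GFP cells in osteogenic medium 2 were called, against 1 without a filter, 1 when scaled to library totals and 0 to 2 with 1 library left out. The interaction count was 0, against 1 with at least 10 normalized counts in at least 2 libraries and 0 to 1 with 1 library left out. In growth medium the count was 0 in every alternative run. Fewer libraries leave fewer residual degrees of freedom, and dropping the filter adds genes to the adjustment. Other causes were not tested. A fit within 4 libraries cannot give the interaction.

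With the replicate block the counts were 5, 4, 0, 2 and 0 in the order THOC5 response, GFP response, growth medium, osteogenic medium and interaction. Same-numbered libraries deviated together with correlations between -0.19 and 0.40, the highest between THOC5 and GFP cells in growth medium. The labels name no shared culture or day behind the numbers, and not every pair of groups correlated, so the libraries were not treated as paired.

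Over all tested genes, 122 were called in the THOC5 response (37 without a filter, 14 to 124 with 1 library left out) and 4698 in the GFP response (2250 to 4577). In osteogenic medium 4963 were called (2014 to 5079) and 2082 in the interaction (1122 without a filter, 372 to 1938). Thoc5 in growth medium lost its call without a filter and within the 4 libraries compared, and with any 1 of the 4 osteogenic libraries left out (adjusted p between 0.0574 and 0.0799). Scaling to library totals moved the median of all genes by log2 0.13 in the GFP response, -0.16 in osteogenic medium and -0.10 in the interaction. Calls then split into 3720 higher and 1686 lower (2314 and 2384 as reported), 1662 and 4063 (2550 and 2413), and 887 and 1381 (1197 and 885). Of the values of the other named genes, 902 kept their side of the threshold, 116 lost the call and 8 gained it.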
